A study of Mus musculus with 6 samples.

Results

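A set of 10 genes of small extracellular vesicles, or exosomes, was followed in irradiated mouse fibroblasts: the tetraspanins Cd9, Cd63, Cd81 and Cd82, the sorting factors Pdcd6ip (ALIX), Tsg101 and Sdcbp (syntenin-1), the sphingomyelinase Smpd3, and the small GTPases Rab27a and Rab27b. They were taken by symbol from the deposited expression table, and all 10 were found among its 21878 genes. The cells were of the NIH3T3 line, fibroblasts grown from mouse embryos and immortal in culture, labelled as carrying a radiation injury in both groups. One group of 3 libraries came from cells treated with exosomes and the other group of 3 from cells given PBS (phosphate-buffered saline), all at 72 h. The series title calls the exosomes plasma-derived. No unirradiated group was analysed here, and the labels give no radiation dose, exosome dose or plasma species.

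Exosomes form when the membrane of a late endosome buds inward, giving a multivesicular body whose inner vesicles are set free on fusion with the plasma membrane. Tetraspanins are proteins that cross the membrane several times and gather partner proteins into patches carried into these vesicles. Inward budding is served by the ESCRT complexes, to which Tsg101 belongs and with which ALIX works, by syndecans joined to ALIX through syntenin, and by ceramide, which neutral sphingomyelinase 2, the product of Smpd3, makes from sphingomyelin. Rab27a and Rab27b help to bring multivesicular bodies to the cell surface. The values below are RNA levels of the recipient cells, and vesicle release itself was not measured. RNA carried in by the added vesicles cannot be told apart from the cells' own RNA.

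Of these genes 2 changed past the threshold, both by small amounts. Cd82 rose 1.36-fold and Pdcd6ip fell 1.13-fold with exosomes, while Cd63, Cd81, Cd9, Tsg101, Sdcbp and Smpd3 did not pass. Rab27a and Rab27b were too low for the main test, and Rab27a was called raised in the authors' deposited table. Of the 10 genes 8 had at least 1 FPKM (fragments scaled to transcript length and library) in 3 or more of the 6 libraries and were tested with limma on log2(FPKM + 1) across 10274 genes. At a Benjamini-Hochberg adjusted p under 0.05, 1 rose and 1 fell, which is 25.0% of the 8, against 43.8% of all tested genes called in either direction (25.4% raised and 18.4% lowered). The median log2 change of the 8 was −0.03, and that of all tested genes was 0.04.

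The sequences around the starts of Cd82, Rab27a and Pdcd6ip are shown because these are the 3 genes whose libraries did not overlap between groups. RefSeq windows of 250 bases before to 50 bases after the annotated start (build GRCm38.p6, not the mm9 build named in the submitters' processing notes) were found for 7 of the 10 genes, in 11 entries. Cd82 has 4 listed starts and Rab27a has 2, and the first is shown for each. Which start these cells use was not tested. Capitals mark matches on either strand to 4 motifs: CACGTG (an E-box), GGGCGG (a GC box), TGANTCA (an AP-1 site) and TATAAA (the box of that name near some starts).

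Cd82, chr2:93462901-93463200, minus strand: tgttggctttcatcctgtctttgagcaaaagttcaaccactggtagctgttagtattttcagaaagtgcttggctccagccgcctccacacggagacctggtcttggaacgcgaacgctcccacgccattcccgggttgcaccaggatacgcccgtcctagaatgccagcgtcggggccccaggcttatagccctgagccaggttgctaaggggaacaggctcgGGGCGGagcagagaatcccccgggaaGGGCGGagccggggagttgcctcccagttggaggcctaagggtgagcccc
Rab27a, chr9:73044560-73044859, plus strand: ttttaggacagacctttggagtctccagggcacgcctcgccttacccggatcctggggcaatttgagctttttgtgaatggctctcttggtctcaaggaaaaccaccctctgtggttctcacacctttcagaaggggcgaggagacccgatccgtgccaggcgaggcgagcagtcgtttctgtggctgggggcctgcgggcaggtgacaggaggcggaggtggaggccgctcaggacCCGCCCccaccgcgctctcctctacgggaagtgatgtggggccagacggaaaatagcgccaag
Pdcd6ip, chr9:113708210-113708509, minus strand: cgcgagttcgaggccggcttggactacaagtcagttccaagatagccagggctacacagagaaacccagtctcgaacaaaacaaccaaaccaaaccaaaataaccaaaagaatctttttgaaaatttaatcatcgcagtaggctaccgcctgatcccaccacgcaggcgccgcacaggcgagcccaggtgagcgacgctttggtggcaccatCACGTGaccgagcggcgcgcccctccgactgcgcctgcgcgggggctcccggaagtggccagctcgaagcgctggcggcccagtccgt

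The Cd82 window holds GGGCGG 2 times, from 26 to 21 bases before the start and again over bases 1 to 6 from it. The Rab27a window holds it 1 time on the other strand, from 13 to 8 bases before the start. The Pdcd6ip window has no GGGCGG and holds CACGTG from 38 to 33 bases before the start. Among all 32851 windows of this length, 35.7% hold GGGCGG, 7.15% CACGTG, 7.81% TGANTCA and 13.6% TATAAA. The last pair of motifs is absent from the 3 windows shown. The windows of Cd9 and Cd81, which did not pass the test, hold GGGCGG 2 and 3 times. Tsg101, which did not pass either, holds it over bases 19 to 24 and 24 to 29 from its start. Of the starts not shown, number 2 of Rab27a has CACGTG from 246 to 241 bases before it and no GGGCGG. Number 2 of Cd82 has GGGCGG, while its numbers 3 and 4 have none of the 4 motifs. A match describes the letters in a window and no more.

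By level, the 10 genes fell into steps. Cd63 stood highest at 424 FPKM over the 6 libraries, above 99.4% of the genes listed above 0. Cd81 at 220 and Cd9 at 214 FPKM followed, and their ranges over libraries overlapped. Sdcbp was at 75.1 FPKM, and Tsg101 at 36.2 and Pdcd6ip at 35.2 overlapped each other. Cd82 at 6.48 and Smpd3 at 3.18 FPKM lay near the middle of expressed genes, above 58.7% and 45.7% of them. Rab27b at 0.794 and Rab27a at 0.521 FPKM were lowest and overlapped.

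**Figure D1:**
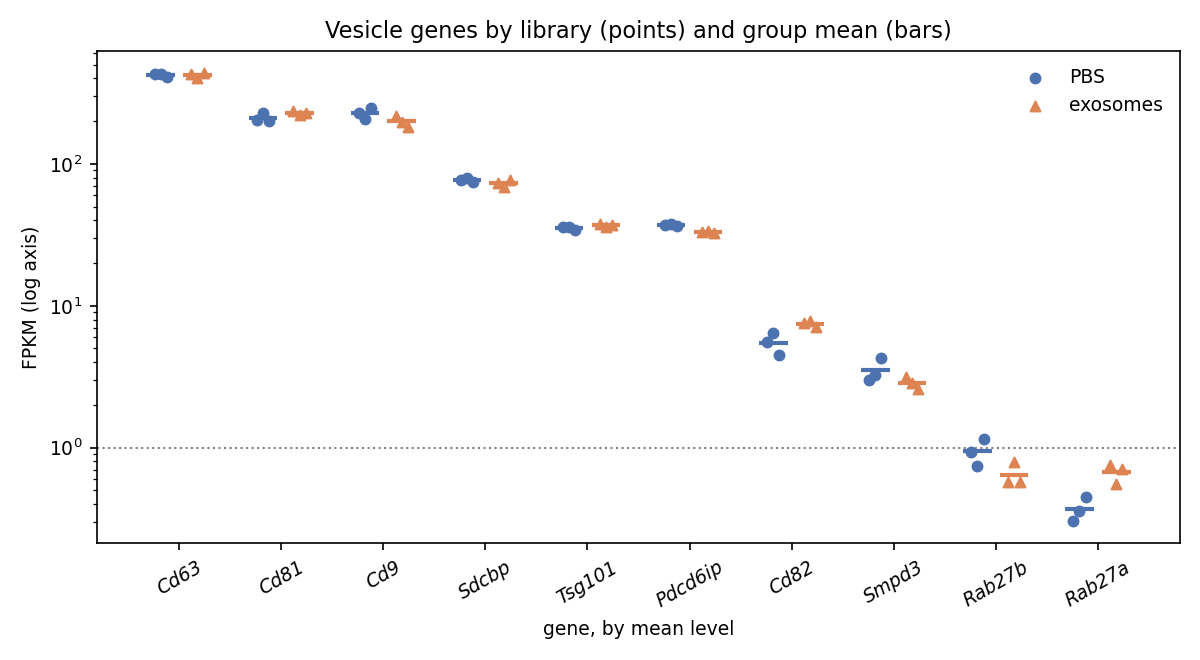
FPKM of each gene on a log axis, 1 point per library and a short bar at the mean of each group of 3, with a dotted line at 1 FPKM, the minimum used for testing. The groups separate without overlap for Cd82, Pdcd6ip and Rab27a and overlap for the other genes.

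Among the tetraspanins Cd82 rose and the other 3 did not pass. Cd82, also known as KAI1, a suppressor of metastasis, was at 5.58, 6.42 and 4.52 FPKM in PBS libraries 1 to 3 and at 7.53, 7.81 and 7.04 in exosome libraries 1 to 3. Every exosome library lay above every PBS library. Its mean was 7.46 ± 0.392 FPKM with exosomes and 5.50 ± 0.951 with PBS (SD, n = 3 each), a log2 change of 0.39 ± 0.10 (SE, limma adjusted p = 0.0110). The authors' deposited table, built on counts, gives mean normalized counts of 314 and 240 for Cd82, a fold of 1.31 and an adjusted p of 0.0391.

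Cd9, a tetraspanin of cell fusion and adhesion, was at 230, 205 and 249 FPKM with PBS and at 218, 197 and 183 with exosomes. The groups overlapped, with exosome library 1 above PBS library 2. Its log2 change was −0.19 ± 0.08 with a 95% interval of −0.37 to −0.01 and a limma adjusted p of 0.0846. Without PBS replicate 2 it was called lower (adjusted p = 0.0213), and without exosomes replicate 1 as well (0.0434). The change was −0.13 without PBS replicate 3 (adjusted p = 0.236) and −0.13 without exosomes replicate 3 (0.246). The authors' deposited table gives a fold of 0.844 at an adjusted p of 0.0955.

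Cd81, a partner of immunoglobulin-domain proteins and integrins, was at 204, 227 and 201 FPKM with PBS and at 235, 221 and 230 with exosomes. PBS library 2 lay above exosome library 2, and the other PBS libraries lay below all 3 exosome libraries. The log2 change was 0.12 ± 0.06 (interval −0.01 to 0.24, limma adjusted p = 0.120), and without PBS replicate 2 it was called higher (0.0229). Cd63, a tetraspanin of late endosomes and lysosomes, ranged from 403 to 436 FPKM over all 6 libraries. Its log2 change of 0.00 ± 0.05 had an interval of −0.11 to 0.11 (adjusted p = 0.991).

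The 4 tetraspanins summed to 865 to 870 FPKM in the PBS libraries and 830 to 894 in the exosome libraries, so the sums overlapped. Within that sum Cd63 took 48.8% ± 1.16 with PBS and 49.3% ± 1.40 with exosomes (SD, n = 3 each). Cd9 took 26.3% ± 2.57 and 23.2% ± 1.58, and Cd81 24.3% ± 1.60 and 26.6% ± 0.258. Cd82 made up 0.634% ± 0.108 with PBS and 0.869% ± 0.0637 with exosomes.

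Pdcd6ip was the member that fell. It encodes ALIX, an adaptor that binds syntenin and Tsg101 and recruits ESCRT-III to budding membranes. It was at 37.2, 37.9 and 36.7 FPKM in PBS libraries 1 to 3 and at 33.0, 33.6 and 32.7 in exosome libraries 1 to 3. The groups did not overlap. The means were 37.3 ± 0.609 and 33.1 ± 0.481 FPKM (SD, n = 3 each), a log2 change of −0.17 ± 0.04 (interval −0.26 to −0.07, limma adjusted p = 0.00954). The call held in all 12 alternative settings run (adjusted p from 0.00882 to 0.0346). In the authors' deposited table the mean normalized counts were 5855 with PBS and 5056 with exosomes (fold 0.864, adjusted p = 0.00240).

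Its partners did not pass. Tsg101, an ESCRT-I subunit that recognises ubiquitin-tagged cargo, was between 34.1 and 36.1 FPKM with PBS and between 35.7 and 37.9 with exosomes, and the groups overlapped. Its log2 change was 0.06 ± 0.05 (interval −0.05 to 0.16, limma adjusted p = 0.348), and it was 0.03 without PBS replicate 3 and 0.04 without exosomes replicate 1. Sdcbp, which links syndecan tails to ALIX, was between 74.1 and 79.3 FPKM with PBS and between 69.0 and 77.2 with exosomes (−0.07 ± 0.05, interval −0.18 to 0.05, adjusted p = 0.311). Its change was −0.02 without exosomes replicate 2 and −0.10 without exosomes replicate 3. The level of Pdcd6ip relative to Tsg101 was 1.03, 1.05 and 1.08 in the PBS libraries and 0.871, 0.941 and 0.883 in the exosome libraries, a ratio set up after the values were seen and given without a test.

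Smpd3 was at 2.98, 3.26 and 4.26 FPKM with PBS and at 3.15, 2.84 and 2.59 with exosomes. PBS library 3 was the highest, and PBS library 1 lay below exosome library 1. The log2 change was −0.21 ± 0.10 (interval −0.45 to 0.02, limma adjusted p = 0.125), and it was −0.10 without PBS replicate 3 (adjusted p = 0.396). Smpd3 had a fold of 0.784 in the authors' deposited table (adjusted p = 0.273).

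**Figure D2:**
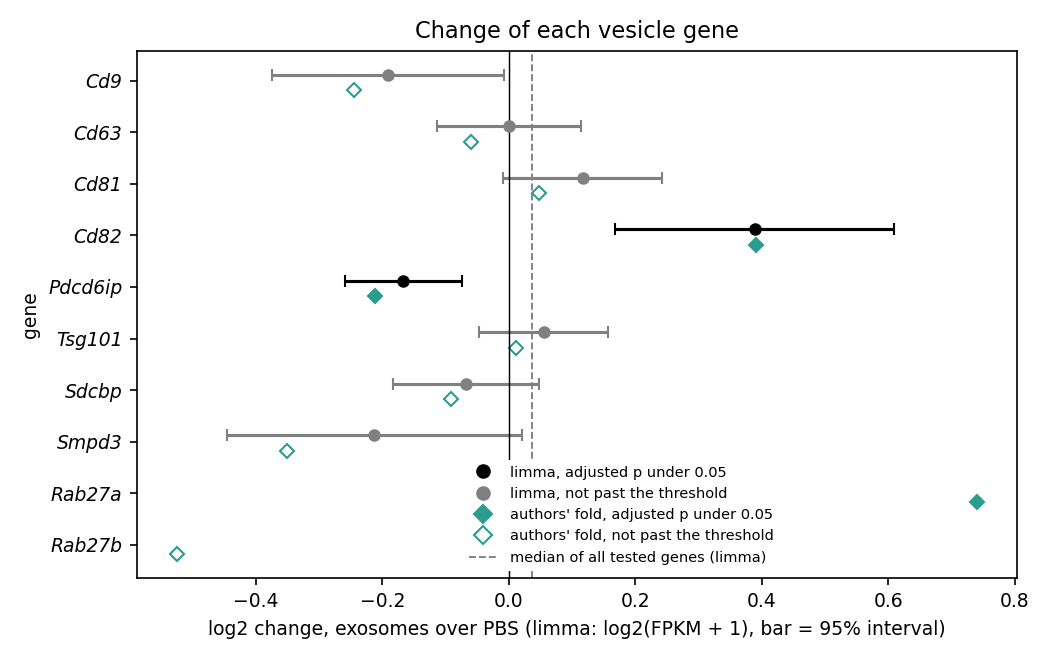
Log2 change of exosomes over PBS for each gene: circles with 95% intervals from limma on log2(FPKM + 1) for the 8 tested genes, and diamonds for the authors' folds from counts for all 10. Cd82 and Pdcd6ip are past the threshold by both, Rab27a by the authors' table, and the interval of Cd63 is centred on 0.

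Rab27a was higher with exosomes in every library, at a low level. It was at 0.305, 0.360 and 0.447 FPKM in PBS libraries 1 to 3 and at 0.757, 0.554 and 0.705 in exosome libraries 1 to 3. The groups did not overlap, and the mean was 0.672 ± 0.105 with exosomes against 0.371 ± 0.0717 with PBS (SD, n = 3 each), 1.81-fold higher. Since no library reached 1 FPKM the main test left it out. Without the filter on low values, where limma called 27.8% of 15504 genes, its log2 change was 0.29 ± 0.06 (adjusted p = 0.0174). The authors' deposited table gives mean normalized counts of 72.7 with exosomes and 43.5 with PBS, a fold of 1.67 and an adjusted p of 0.0140.

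Rab27b, its close relative, leaned the other way without passing. It was at 0.926, 0.738 and 1.16 FPKM with PBS and at 0.569, 0.798 and 0.572 with exosomes, so the groups overlapped through PBS library 2 and exosome library 2. The means were 0.941 ± 0.211 and 0.646 ± 0.131 FPKM (SD, n = 3 each). Without the filter limma gave a log2 change of −0.23 ± 0.10 (adjusted p = 0.122), and the authors' deposited table a fold of 0.695 (adjusted p = 0.120). Without PBS replicate 3 the log2 difference of Rab27b was −0.16. The ratio of Rab27a to Rab27b, set up after the values were seen, was 0.329, 0.488 and 0.386 in the PBS libraries and 1.33, 0.695 and 1.23 in the exosome libraries. The ratios, given without a test, did not overlap, as Rab27a alone did not. The sum of both genes did overlap, at 1.10 to 1.61 FPKM with PBS and 1.28 to 1.35 with exosomes.

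**Figure D3:**
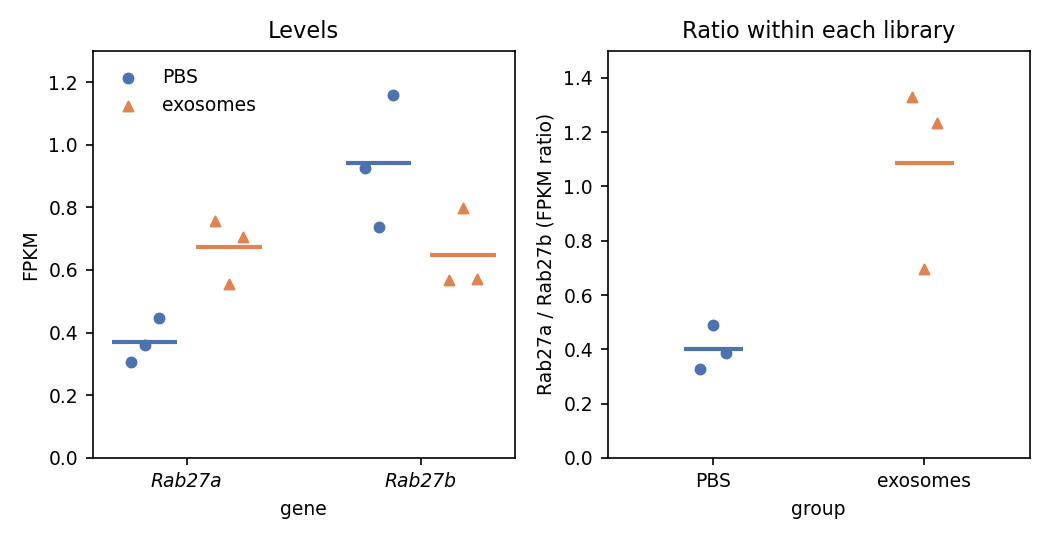
Left, FPKM of Rab27a and Rab27b in each library with a bar at the group mean. Right, the ratio of Rab27a to Rab27b within each library, 0.329 to 0.488 with PBS and 0.695 to 1.33 with exosomes.

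Of the 10 genes 3 had an adjusted p under 0.05 in the authors' deposited table, Cd82 and Rab27a raised and Pdcd6ip lowered. Of the 15844 genes with an adjusted p there, 25.9% were called, 12.4% raised and 13.5% lowered. The libraries of the groups did not overlap for 2 of the 8 tested genes, against 55.6% of all tested genes, and for 3 of the 10, against 42.9% of the genes above 0 in any library.

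Vesicle genes beyond these were read from 10 lists by role, with 146 genes in the table and 113 tested. Of the 113, 30 rose, 21 fell and 62 did not pass, or 45.1% called, close to the 43.8% of all tested genes. Their median log2 change was 0.02. In 7 of the 10 lists both raised and lowered genes were found, and log2 changes of single genes ran from −1.35 to 0.84.

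Of 27 other tetraspanins 11 were tested, of which 4 rose, 1 fell and 6 did not pass (median 0.10). Tspan4, which builds migrasomes on the trailing fibres of moving cells, fell from 29.6 ± 1.07 to 19.8 ± 1.10 FPKM (log2 change −0.56 ± 0.05, limma adjusted p = 5.47e-05). Tspan31 rose from 104 ± 2.10 to 139 ± 4.52 FPKM (0.41 ± 0.04, adjusted p = 0.000105) and Tspan9 from 10.7 ± 0.851 to 15.7 ± 1.24 (adjusted p = 0.000536). The other two raised, named here after their values were seen, were Tspan17 and Tspan3, by 0.84 and 0.23 on the log2 scale. Cd151, which binds laminin-binding integrins, did not pass, at 17.5 ± 1.87 FPKM with PBS against 18.8 ± 0.622 (adjusted p = 0.255, but 0.0241 without PBS replicate 3).

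The leukocyte tetraspanins Cd53 and Cd37 were under 1 FPKM in every library. Cd53 was at 0.505, 0.279 and 0.804 FPKM with PBS and at 0.0915, 0.0990 and 0.0513 with exosomes, with no overlap, and without the filter limma called it lower (log2 change −0.49, adjusted p = 0.0230). Csf1r, a macrophage receptor, was between 0.759 and 3.22 FPKM with PBS and between 0.249 and 0.381 with exosomes. Without the filter limma called Csf1r lower as well (log2 change −1.08, adjusted p = 0.0352). The authors' deposited table called Cd53 and Csf1r lower (adjusted p = 0.000155 and 0.0390) and did not call Cd68 (0.390). The 10 leukocyte markers summed to 3.56 to 4.92 FPKM with PBS and 1.87 to 2.46 with exosomes, and 3 of them, Cd3e and Tyrobp included, were listed at 0 in all 6 libraries. Without Csf1r, left out after the values were seen, the other 9 summed to 1.70 to 2.83 FPKM with PBS and 1.49 to 2.21 with exosomes, which overlap. Cd68, the marker that was tested, had a log2 change of −0.03 (limma adjusted p = 0.878). In bulk RNA fewer cells of a type and less RNA per cell cannot be told apart, and the part of these markers in the results for the vesicle genes was not tested.

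The ESCRT genes did not share a direction. ESCRT-0, -I and -II, which gather ubiquitin-tagged cargo and start the bud, had 14 genes tested, of which 3 rose, 5 fell and 6 did not pass (median 0.06). Vps37b, an ESCRT-I subunit that partners Tsg101, fell from 16.5 ± 1.47 to 9.49 ± 0.625 FPKM (log2 change −0.74 ± 0.07, limma adjusted p = 5.83e-05). Vps28, also in ESCRT-I, rose from 22.2 ± 0.423 to 26.6 ± 2.08 FPKM (adjusted p = 0.00785), and Stam of ESCRT-0 fell from 13.9 ± 0.599 to 11.7 ± 0.564 (adjusted p = 0.00794). Hgs, the other ESCRT-0 core protein, did not pass, at 13.9 ± 0.570 FPKM with PBS against 13.0 ± 0.605 (adjusted p = 0.177). The count of falling genes was 3 without exosomes replicate 3. The authors' deposited table, built on counts, called Vps37b and Stam lower as well. It did not call Vps28 (fold 1.11, adjusted p = 0.210), and it called Hgs lower (fold 0.862, adjusted p = 0.0129).

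In the ESCRT-III list, whose proteins cut the neck of the bud and which ALIX recruits, 5 of 13 tested genes rose, 0 fell and 8 did not pass (median 0.11). Over all tested genes 25.4% rose and 18.4% fell by limma on FPKM. By the authors' counts the balance was otherwise, with 12.4% of 15844 genes called raised and 13.5% lowered. Chmp5 rose from 31.1 ± 2.03 to 38.5 ± 1.08 FPKM (log2 change 0.30 ± 0.05, limma adjusted p = 0.00204), Chmp1a from 29.0 ± 1.22 to 34.0 ± 1.26 (adjusted p = 0.00555) and Chmp2b from 19.6 ± 1.14 to 23.2 ± 1.28 (adjusted p = 0.00975). These 3 calls held in all 12 alternative settings, all of them limma on FPKM. The other raised genes were Chmp2a and Chmp6. The count of risen genes was 3 without PBS replicate 3, exosomes replicate 1 or exosomes replicate 3, and without the filter on low values. The authors' deposited table, built on counts, called Chmp5 and Chmp2b raised (adjusted p = 0.00109 and 0.0185). It did not call Chmp1a, Chmp2a or Chmp6 (adjusted p = 0.0841, 0.174 and 0.163).

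On the syndecan route, in which Sdcbp joins syndecan tails to ALIX, 4 of 9 tested genes rose, 3 fell and 2 did not pass (median −0.08). This is 77.8% called in a list of 9 genes, against 43.8% of all tested genes. Sdc4, a syndecan of focal adhesions, fell from 111 ± 4.92 to 64.1 ± 2.59 FPKM (log2 change −0.79 ± 0.05, limma adjusted p = 4.46e-06), and no exosome library reached the lowest PBS library. The GTPase gene Arf6 fell from 59.0 ± 1.61 to 50.7 ± 1.88 FPKM (adjusted p = 0.00461). Pld1, a phospholipase D, rose from 1.34 ± 0.124 to 2.37 ± 0.0147 FPKM (0.52 ± 0.07, adjusted p = 0.000307). The other raised genes, named after their values were seen, were Sdc1, Src and Pld2. The call of Pld2 (adjusted p = 0.0431) ended without the filter (0.0717) and without some libraries (up to 0.145). That of Ptpn11, also lowered, ended without PBS replicate 1 (0.0695) or 3 (0.0666), and exosomes replicate 1 or 2. The authors' deposited table called Sdc1, Pld1, Sdc4, Arf6 and Ptpn11 in the same directions. It did not call Src or Pld2 (adjusted p = 0.091 and 0.111).

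Partners of the tetraspanins split as well, with 2 of 9 tested genes raised, 2 lowered and 5 not past the threshold (median −0.08). Ptgfrn and Igsf8 encode immunoglobulin-domain proteins that bind Cd9 and Cd81 directly. Ptgfrn rose from 22.9 ± 0.158 to 26.4 ± 0.907 FPKM (log2 change 0.19 ± 0.04, limma adjusted p = 0.00716), and Igsf8 fell from 41.7 ± 1.86 to 36.8 ± 1.36 (adjusted p = 0.0180, but 0.0768 without PBS replicate 1 and 0.0694 without exosomes replicate 2). Hbegf, a growth factor whose membrane form associates with Cd9, fell from 10.2 ± 0.829 to 3.41 ± 0.245 FPKM (−1.35 ± 0.07, adjusted p = 1.48e-06). The other raised gene, named after its values were seen, was Igsf3 (0.34, adjusted p = 0.0193). Its call ended without the filter on low values (0.0506), without PBS replicate 1 (0.0565) or 3 (0.0514), and without exosomes replicate 2 (0.0698). Ptgfrn was not called in the authors' deposited table (fold 1.10, adjusted p = 0.1035). Igsf3 was called raised there, and Igsf8 and Hbegf lowered.

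Around the Rab27 genes, 9 of 19 listed effectors and regulators were tested, of which 2 rose, 0 fell and 7 did not pass (median 0.02). Sytl4 and Exph5, effectors through which Rab27a and Rab27b act on multivesicular bodies, were hardly expressed. Sytl4 was listed at 0 in all 6 libraries, with mean normalized counts of 0 in the authors' deposited table, and Exph5 was between 0.0161 and 0.0232 FPKM. Rab3d, a related secretory GTPase, rose from 2.55 ± 0.385 to 3.75 ± 0.217 FPKM (limma adjusted p = 0.00308). The other raised gene was Rab3a (0.19 ± 0.06, adjusted p = 0.0320), a call that ended without the filter and without each library in turn other than exosomes replicate 2 (adjusted p up to 0.106). Rabggtb, a subunit of the enzyme that attaches lipid anchors to Rab proteins, did not pass, at 40.1 ± 1.18 FPKM with PBS against 38.1 ± 1.16 (adjusted p = 0.211). The authors' deposited table called Rab3d raised (fold 1.42, adjusted p = 0.000186) and did not call Rab3a (fold 1.09, adjusted p = 0.641).

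Among other Rab and Ral GTPases of vesicle traffic 3 of 12 tested genes rose, 2 fell and 7 did not pass (median −0.04). Of the 12 changes 8 were below 0. Rab9, which works between late endosomes and the Golgi, rose from 57.3 ± 1.45 to 73.5 ± 5.27 FPKM (log2 change 0.35 ± 0.05, limma adjusted p = 0.000920), Rab5b of early endosomes from 35.3 ± 1.42 to 43.4 ± 1.20 (adjusted p = 0.00105) and Rab2b from 7.48 ± 0.182 to 9.74 ± 0.594 (adjusted p = 0.00131). The lowered genes, named after their values were seen, were Rab31 and Rab7 (−0.25 and −0.21, adjusted p = 0.00196 and 0.00406). Of 9 tested SNARE genes, whose proteins drive membrane fusion, 1 rose and 8 did not pass (median 0.08). That gene was Stx5a (0.15 ± 0.04, adjusted p = 0.0221), and its call ended with the replicate number as a block (0.0526) and without PBS replicate 1 (0.0658), exosomes replicate 1 (0.0596) or exosomes replicate 3 (0.0802). Without PBS replicate 2 the count was 2, and with upper quartile scaling 3. Vamp8 and Snap23 had log2 changes of 0.15 and 0.13 (adjusted p = 0.0608 and 0.0709). Stx5a was not called in the authors' deposited table (fold 1.06, adjusted p = 0.425).

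Beside Smpd3, the genes that supply or use ceramide moved in both directions, with 4 of 17 tested genes raised, 5 lowered and 8 not past the threshold (median 0.01). The 3 of smallest p all fell, while other ceramide synthase genes rose. Degs1, the desaturase of the last step, fell from 121 ± 4.44 to 92.1 ± 2.12 FPKM (log2 change −0.39 ± 0.04, limma adjusted p = 0.000179), Sptlc2, a subunit of the first enzyme, from 22.5 ± 1.12 to 16.0 ± 0.897 (adjusted p = 0.000228) and the ceramide synthase gene Cers2 from 65.3 ± 1.09 to 56.0 ± 2.06 (adjusted p = 0.00339). The synthase genes Cers4 and Cers6, named after their values were seen, rose by 0.31 and 0.21 on the log2 scale (adjusted p = 0.00408 and 0.0156), and Cers5 did not pass (−0.06, adjusted p = 0.358). The call of Cers6 ended without PBS replicate 1 (0.0598) or exosomes replicate 2 (0.0574). Of the other sphingomyelinases, the lysosomal Smpd1 rose from 18.3 ± 1.16 to 21.5 ± 1.07 FPKM (adjusted p = 0.0127). Smpd2 had a log2 change of 0.14 ± 0.06 (adjusted p = 0.103) and Smpd4 of 0.01 ± 0.06 (adjusted p = 0.949). The authors' deposited table did not call Smpd1 (fold 1.10, adjusted p = 0.183), Smpd2 or Smpd4. It called Degs1, Sptlc2 and Cers2 lowered and Cers4 and Cers6 raised.

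Common vesicle cargo and lysosomal membrane genes gave 2 raised, 3 lowered and 5 not past the threshold of 10 tested (median −0.05), and 1 raised without exosomes replicate 1. Tfrc, the transferrin receptor, which reticulocytes shed on exosomes, fell by 1.29 on the log2 scale (limma adjusted p = 1.18e-06) and Ninj1, a protein of plasma membrane rupture, by 0.50 (adjusted p = 0.000584). Hspa8, a chaperone abundant in vesicles, fell from 587 ± 10.3 to 500.4 ± 6.08 FPKM (adjusted p = 0.00320).

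**Figure D4:**
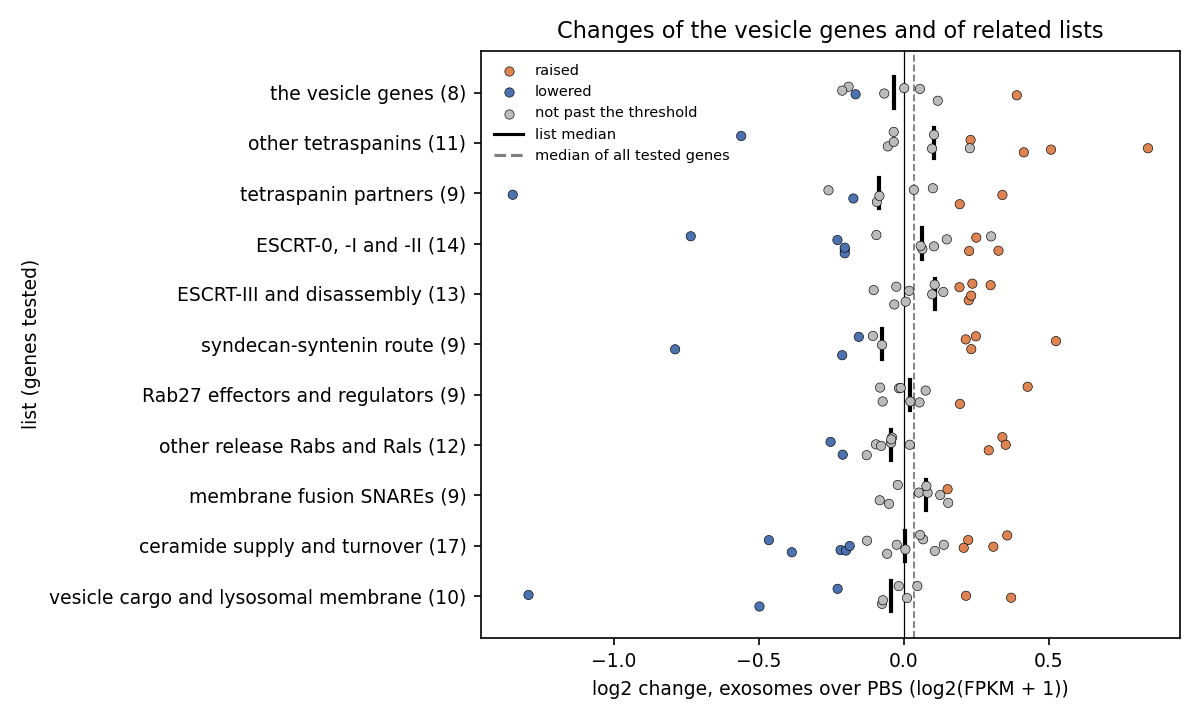
Log2 change of exosomes over PBS for each tested gene, 1 point per gene, in the vesicle genes and the 10 lists by role, coloured by limma's call, with a black bar at each list's median and a dashed line at the median of all tested genes (0.04). In 7 of the 10 lists both raised and lowered genes are present, and the list medians lie between −0.08 and 0.11.

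The genes nearest in pattern to those that changed were found by the mean absolute difference of centred log2(FPKM + 1) over the 6 libraries. Gm2a and Crabp1 were nearest to Cd82, at 0.0177 and 0.0259, and Hnrnpd and Pum2 nearest to Pdcd6ip, at 0.0143 and 0.0156. These are descriptions over 6 libraries in 2 groups.

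The defining fibroblast markers were present, all 10 of them tested, with Vim between 1333 and 1482 FPKM and Col1a1 between 427 and 799. Of the 10 markers 5 rose, 2 fell and 3 did not pass, or 70% called, against 43.8% of all tested genes. Markers of blood were low in both groups: 8 platelet markers summed to 4.89 to 6.91 FPKM with PBS and 5.68 to 6.88 with exosomes, 7 red cell markers to 1.04 to 1.65 and 0.699 to 2.03, and 8 plasma proteins made by liver to 0.172 to 0.386 and 0.192 to 0.302. Of the 2 platelet markers tested, Itga2b rose from 1.90 ± 0.409 to 2.80 ± 0.116 FPKM (log2 change 0.40 ± 0.10, limma adjusted p = 0.00862) and Itgb3 did not pass (0.05, adjusted p = 0.575), while Gp1ba, Gp9 and Gp6 were listed at 0 in all 6 libraries. The part of these markers in the other results was not tested. Between 10080 and 10271 genes reached 1 FPKM in each library. The authors' group means of normalized counts sum to about 20300000 with PBS and 19800000 with exosomes, totals that are already scaled between libraries and so do not give the depth of any one.

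Cd9, Cd63 and Tsg101 have named pseudogenes in RefSeq that can share their reads, and 6 of the 10 genes (Cd9, Cd81, Cd82, Tsg101, Rab27b and Smpd3) overlap another gene, so their levels are uncertain where reads were not assigned by strand, and the sources used here do not give that. On the FPKM scale log2 changes lay a median of 0.05 above log2 folds taken from the authors' deposited table, over 9887 genes. That table gives Cd63 a fold of 0.960 and Tsg101 a fold of 1.01.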

How the data were processed

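Per the labels' protocols, stranded mRNA libraries were read from both ends. Tools in the submitters' processing notes are DESeq, HTSeq, Cufflinks, HISAT2, StringTie, Bowtie2, SAMtools and Trimmomatic, with mm9 as the build and neither versions nor roles. The authors deposited 1 expression value per gene and library, headed only as expression and read here as FPKM from Cufflinks in those notes and from column sums that differ. Per the file headers the same table holds the authors' group means of normalized counts (a count signal), their fold change (a ratio), and a p-value before and after adjustment. No count of a single library was analysed here, so no count test was run, and the depth of each library is unknown. Library columns were matched by the sample numbers in the labels, 0 pairs of libraries were identical, and 27 gene names turned into dates were repaired through Entrez identifiers.

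The test took genes with at least 1 FPKM in 3 of the 6 libraries, on log2(FPKM + 1), a pseudocount of 1, and used limma 3.58.1 in R 4.3.3 (trend, robust, group only, two-sided, Benjamini-Hochberg over all 10274 genes). This scale shrinks the changes of genes with low FPKM. The test was checked on simulated data. P-values measure the spread between libraries, which may be technical, as the labels do not say that cultures were separate. The members, the lists by role and the cell markers were chosen with earlier results of these data known. Named are the 10 genes, the 3 tested genes of smallest p in each list, direct partners or paralogs of the 10, and the 2 genes nearest in pattern to each called one. Vamp7 was not found in the table. Alternatives were another pseudocount (0.1), no filter and a minimum of 5 FPKM, upper quartile scaling, limma without trend and robust estimation, the replicate number as a block, and leaving out each library.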

Additional observations from a re-analysis of the deposited data

How the results depend on the processing

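The calls of Cd82 (adjusted p from 0.00184 to 0.0423) and Pdcd6ip (0.00882 to 0.0346) held in all 12 alternatives run. Of the 8 tested genes 1 was raised and 1 lowered, and leaving out 1 library at a time gave 1 to 2 raised and 1 to 2 lowered. The additions were Cd81 and Cd9 without PBS replicate 2, and Cd9 without exosomes replicate 1. Without the filter on low values, 2 were raised, Rab27a being the addition through the wider set tested. The log2 change of Cd63 ran from −0.022 to 0.037 when libraries were left out, below 0 without PBS replicate 3 (−0.022), exosomes replicate 1 (−0.015) or exosomes replicate 3 (−0.020), and it was not called in any of the 12 alternatives. Over all genes the counts stayed within 1.5 times, as did the 30 raised and 21 lowered genes of the lists by role. With the replicate number as a block 1 of the 8 tested genes was raised and 1 lowered, and 2288 and 1626 genes were called over the table against 2612 and 1889. Same-numbered libraries did not deviate together (correlations of −0.120, −0.0212 and −0.295 across genes), and 0 of 6 libraries correlated best with its own number, so the numbers were not taken as pairs. Without counts per library, no limit from depth could be set.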

Other observations

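The annotation in the authors' deposited table offers another way to read vesicle genes, looked at after the values were seen. It gives the term extracellular exosome to 77 genes, among them Cd9, Cd63, Cd81, Pdcd6ip, Sdcbp and Tsg101. Of these 77, 49 were tested, 10 rose and 14 fell (49.0% called, against 43.8% of all tested genes), with a median log2 change of −0.02. Among those of small p were Tfrc, described above, and Vasn, a TGF-beta trap, which fell by 0.75 on the log2 scale.

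Terms on exosome secretion or assembly cover 21 genes, 5 of them among the 10 described. Of 18 tested 3 rose and 5 fell (44.4% called, close to the 43.8% of all tested genes, median −0.09). Terms naming the multivesicular body cover 66 genes, of which 42 were tested, 6 rose and 10 fell (38.1% called). Sort1, the sorting receptor sortilin, rose by 0.63 on the log2 scale, and Laptm4b, a late endosomal membrane protein, fell by 0.37. Sytl1, a Rab27 effector under the main minimum, was at 0.479, 0.431 and 0.553 FPKM with PBS and at 0.821, 0.736 and 1.24 with exosomes, and limma without the filter gave a log2 change of 0.37 ± 0.10 (adjusted p = 0.0368). Like Rab27a it did not overlap between groups, at a level where its mean normalized counts in the authors' deposited table were 32.5 and 59.7.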
